A study of Caenorhabditis elegans with 8 samples.

Results

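The flp genes of Caenorhabditis elegans encode precursors of FMRFamide-like peptides, short neuropeptides that end in an amidated arginine-phenylalanine. A precursor is cut by proprotein convertases, trimmed by a carboxypeptidase, amidated, packed into dense core vesicles and released, and the peptides act mostly on G protein-coupled receptors. In the worm these peptides are known for roles in locomotion, feeding, egg laying, fat storage and sleep. The genes were taken as all rows of the count table whose gene name is flp- followed by a number, which gave 31 genes of the 46748 identifiers in the table. Of these, 30 passed the filter on low counts and were tested among 14449 genes. The exception, flp-23, had 0 counts in all 8 libraries, which allows at most 0.11 to 0.139 CPM (read counts scaled to a common library total) depending on the library, by a limit of 3 counts for a count of 0 that covers counting error only.

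Whole N2 hermaphrodites, the wild-type strain, were sampled for messenger RNA at the age of 1 day or 5 days, kept with arsenite or with water. This gave 4 groups of 2 libraries each. Arsenite is a toxic form of arsenic, and both the arsenite and the water samples carry 100 nM in their labels. The 1-day descriptions also give 24 h, no label gives the length of exposure, and no allele or other agent is named. Library numbers run from 31 to 34 at 1 day and from 23 to 26 at 5 days, so a library batch, age and length of exposure cannot be told apart. Whether replicate libraries stem from different cultures is not stated in the labels, and p-values therefore cover the variation among these samples alone, some of which may be technical. The libraries held 21598326 to 27317490 counts, and replicate libraries were distinct, their counts differing beyond sampling noise with a chi-square of 3.804 to 7.615 per degree of freedom. All 15 pan-neuronal markers examined were detected. Whole worms also hold muscle, intestine, hypodermis, germline and embryos. In such bulk RNA, fewer cells of a type and less RNA per cell cannot be told apart.

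The flp genes are spread over all 6 chromosomes, with 13 on X, 5 each on III and IV, 3 each on II and V and 2 on I. The X chromosome thus holds 41.9% of all 31 flp genes, and 13 of the 30 tested ones, against 14.5% of all genes tested. On X, flp-28, flp-3 and flp-2 follow each other on the minus strand within 7932 bases (10087314 to 10095245, build WBcel235). Annotated exons of a gene together span 422 to 1013 bases, and overlaps with exons of other genes reach at most 21 bases, for flp-8. Counts of the tested genes ran from 4 to 1072 per library, with a median over genes of 82.4, so values of the scarcest genes rest on few counts.

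At 1 day in water most flp messages were scarce. On TMM-normalized CPM, used from here on, the median of the 30 tested genes was 4.05 CPM per kilobase of exon, against 8.32 over all genes tested with a known length, and at 5 days it was 5.75 against 7.92. The most abundant per length at 1 day was flp-6, a gene expressed in the thermosensory neuron AFD, at 26.1 ± 1.43 CPM per kilobase (SD, n = 2), followed by flp-28 at 22.06 ± 3.57, flp-1 at 14.96 ± 2.70 and flp-22 at 14.03 ± 0.37. The ranges of these last 2 genes overlapped. At the other end stood flp-32 at 0.742 and flp-25 at 0.925 CPM per kilobase. At 5 days in water flp-6 (55.8 ± 7.64) and flp-28 (37.9 ± 0.61) still led, and flp-24, at rank 9 of the family at 1 day, was at rank 3 with 23.78 ± 1.13 CPM per kilobase. It lay within the spread of flp-18 at 23.48 ± 2.32. Further ranks were 24 and 14 for flp-21 at 1 and 5 days, 29 and 20 for flp-25, and 21 and 28 for flp-13.

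**Figure D1:**
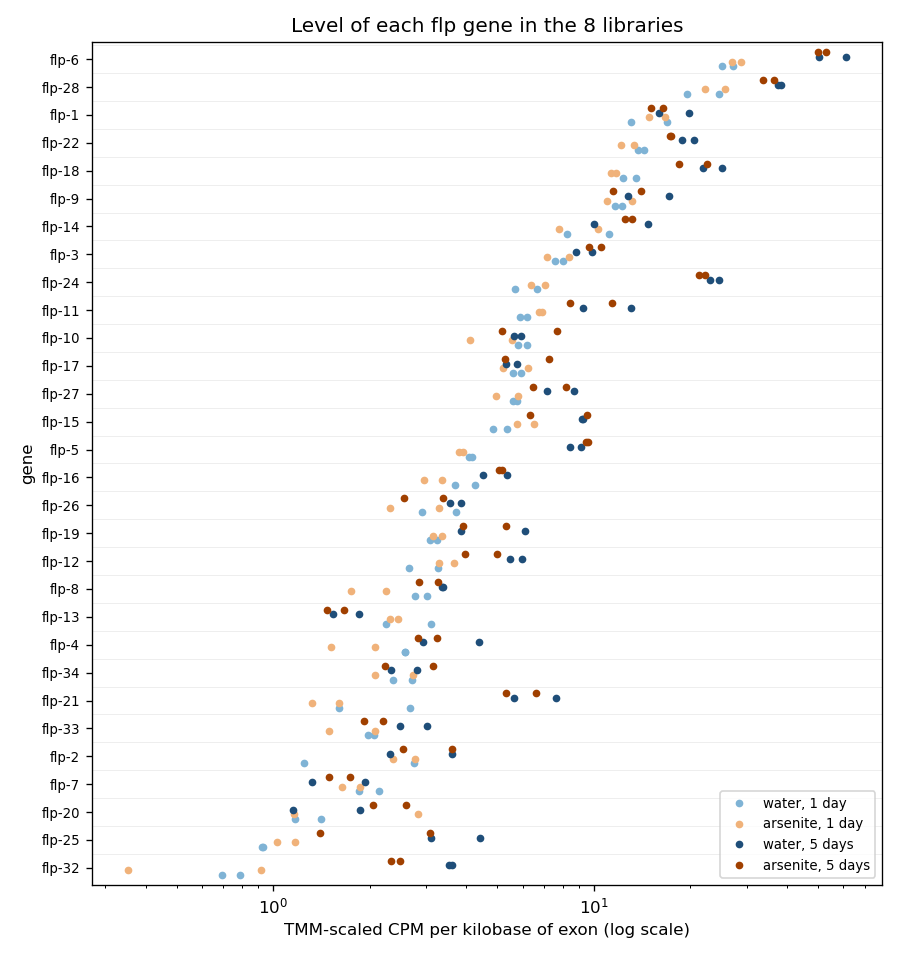
Level of each of the 30 tested flp genes in CPM per kilobase of exon (log axis), with 1 point for each of the 8 libraries, coloured by group. The gene flp-6 is highest at both ages, with means of 26.1 CPM per kilobase in water at 1 day and 55.8 at 5 days.

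Summed over the family, flp messages took 129.0 and 123.5 CPM in the water libraries and 124.5 and 126.6 CPM in the arsenite libraries at 1 day. At 5 days the sums were 197.3 and 211.4 CPM in water and 181.1 and 195.2 CPM in arsenite. All 4 libraries of 5 days lay above all 4 of 1 day, and the ratio of the means was 1.618 in water and 1.498 in arsenite. Within the sum, the 4 most abundant genes made up 42.8% at 1 day and 47.3% at 5 days in water, and flp-6 alone made up 15.1% and 20.0%.

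The first comparison set 5 days against 1 day in water. Of the 30 tested flp genes 14 rose and 1, flp-13, fell by the edgeR quasi-likelihood test at an adjusted p under 0.05, where 30.1% of all genes tested rose and 30.0% fell. The median log2 fold change of the family was 0.48, against 0.01 over all genes. A rise of 2-fold or more was called for 6 flp genes, and for 10.7% of all genes. In 20 flp genes both 5-day libraries were above both 1-day libraries and in 1 both were below, against 39.8% and 39.2% of all genes. In arsenite, 15 flp genes rose and 0 fell, where 30.3% of all genes rose and 29.4% fell. At an unadjusted p under 0.05, flp-13 was the one gene with a lower value there. The family's median in arsenite was 0.44 against 0.01, and 5 genes rose by 2-fold or more (10.5% of all genes). The libraries of the ages did not overlap for 18 genes that were higher and 1 that was lower at 5 days, against 41.1% and 39.9%. The age comparisons in water and in arsenite share no library. They had 10 of 30 flp genes called in common, where 52.4% of all genes were, and 20 were called in at least 1, where 67.4% of all genes were. The sign was the same in both for 27 flp genes, against 90.4% of all genes. Without replicate 1 of arsenite at 1 day, the count in arsenite was 8 in place of 15, and DESeq2 called 9.

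**Figure D2:**
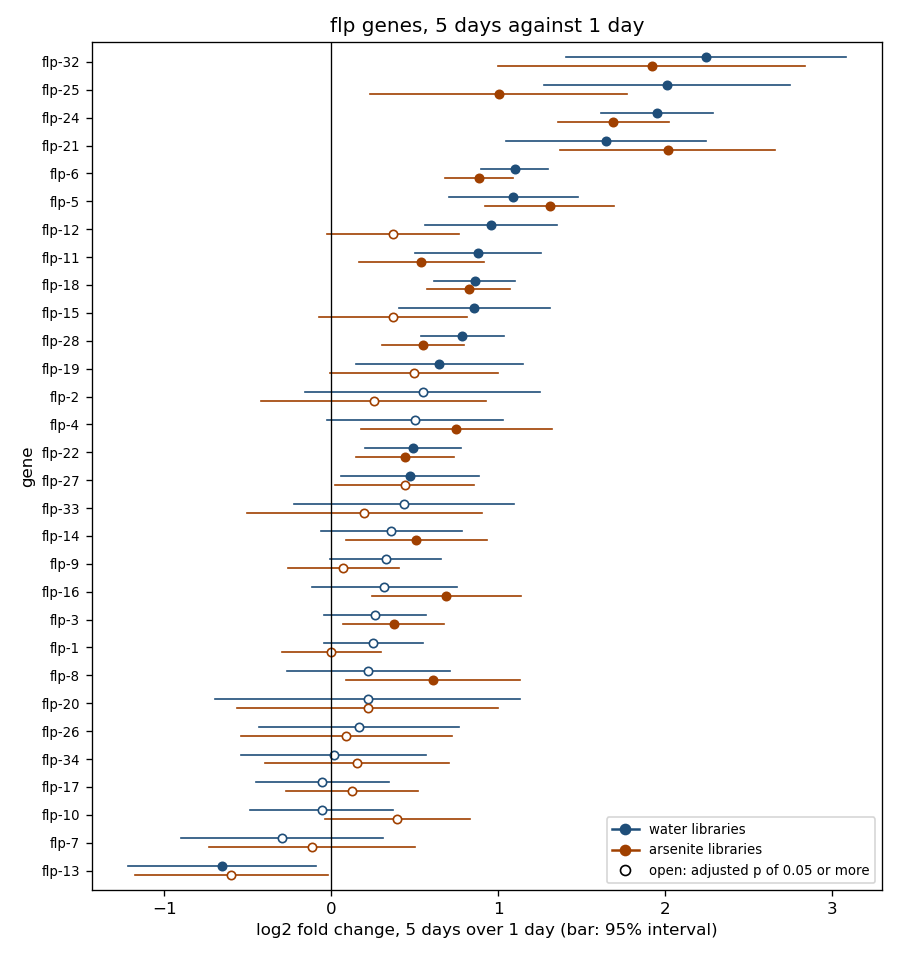
Log2 fold change of 5 days over 1 day for each tested flp gene in water and in arsenite, with 95% intervals, filled where the adjusted p was under 0.05. The values run from -0.65 for flp-13 to 2.24 for flp-32 in water and from -0.60 to 2.01 in arsenite.

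In water the largest fold rise was that of flp-32, which was also the scarcest tested member at 1 day. In arsenite it was that of flp-21, ahead of flp-32. On X from 15433787 to 15434972, flp-32 (WBGene00010982) stood at 0.296 and 0.336 CPM in water and 0.390 and 0.150 CPM in arsenite at 1 day. By 5 days it was at 1.542 and 1.501 CPM in water and 1.06 and 0.990 CPM in arsenite. Every 5-day library was above every 1-day library. The log2 fold change was 2.24 (SE 0.41, edgeR adjusted p = 5.106e-05) in water and 1.92 (SE 0.44, edgeR adjusted p = 7.282e-04) in arsenite. The next largest rise in water, though not in arsenite, was that of flp-25 (WBGene00010575, chromosome III, 9361528 to 9365380), with 0.592 and 0.598 CPM in water and 0.663 and 0.750 CPM in arsenite at 1 day. At 5 days it had 2.00 and 2.83 CPM in water and 0.90 and 1.98 CPM in arsenite. The ages did not overlap in either treatment, but 1 arsenite library of 5 days lay close to the 1-day values. Its log2 fold change was 2.01 (SE 0.36, edgeR adjusted p = 4.301e-05) in water and 1.00 (SE 0.37, edgeR adjusted p = 0.02382) in arsenite, and without replicate 2 of arsenite at 5 days the latter was 0.33 with an adjusted p of 0.5439.

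Genes of sleep did not move as 1 group. The peptides of flp-13 and flp-24 are released by the neuron ALA and act in the sleep that follows cellular stress, and flp-11 acts in the sleep neuron RIS. The gene flp-24 (WBGene00016028, chromosome III, 725119 to 726155) stood at 2.96 and 2.54 CPM in water and 2.85 and 3.15 CPM in arsenite at 1 day. At 5 days it was at 10.96 and 10.25 CPM in water and 9.485 and 9.90 CPM in arsenite, far above every 1-day library. It rose by 1.95 (SE 0.16, edgeR adjusted p = 4.528e-10) on the log2 scale in water and by 1.69 (SE 0.16, edgeR adjusted p = 4.309e-09) in arsenite, the smallest adjusted p of the family in each. In contrast, flp-13 (WBGene00001456, chromosome IV, 7696932 to 7698420) had 2.37 and 1.72 CPM in water and 1.87 and 1.76 CPM in arsenite at 1 day. Its 5-day libraries had 1.17 and 1.415 CPM in water and 1.27 and 1.125 CPM in arsenite. All 5-day values lay below all 1-day values. Its log2 fold change was -0.65 (SE 0.27, edgeR adjusted p = 0.04241) in water and -0.60 (SE 0.28, adjusted p = 0.069, not called) in arsenite, and the call in water was lost in 9 of 15 alternatives. For flp-11 the libraries had 4.36 and 4.60 CPM in water and 5.11 and 4.99 CPM in arsenite at 1 day. At 5 days these were 6.88 and 9.65 CPM in water and 6.255 and 8.46 CPM in arsenite. Both arsenite and water groups were separate by age, with log2 fold changes of 0.88 (SE 0.18, edgeR adjusted p = 2.479e-04) in water and 0.54 (SE 0.18, edgeR adjusted p = 0.01375) in arsenite. Without replicate 2 of arsenite at 5 days the latter was 0.29 and not called (adjusted p = 0.253).

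Both flp genes whose peptides are ligands of NPR-1, a receptor known for its part in social feeding, rose with age. The gene flp-21 (WBGene00001464, chromosome V, 7793367 to 7794025) stood at 1.18 and 0.710 CPM in water and 0.585 and 0.713 CPM in arsenite at 1 day. At 5 days it reached 2.501 and 3.39 CPM in water and 2.37 and 2.93 CPM in arsenite. No 1-day library reached a 5-day value. It rose by 1.65 (SE 0.29, edgeR adjusted p = 3.575e-05) on the log2 scale in water and by 2.01 (SE 0.31, edgeR adjusted p = 6.858e-06) in arsenite. The second ligand gene, flp-18 (WBGene00001461, X, 3012182 to 3018555), whose peptides also act through NPR-4 and NPR-5, had 13.19 and 12.03 CPM in water and 11.43 and 11.03 CPM in arsenite at 1 day. At 5 days it had 21.26 and 24.44 CPM in water and 17.91 and 21.92 CPM in arsenite, again with no overlap between ages. Its log2 fold change was 0.86 (SE 0.12, edgeR adjusted p = 1.394e-06) in water and 0.82 (SE 0.12, edgeR adjusted p = 3.114e-06) in arsenite. Another called gene in water was flp-15, a source of NPR-3 ligands, with a log2 fold change of 0.86. In arsenite it had 0.37 and was not called.

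Among the genes whose peptides excite the pharynx in assays are flp-5, flp-6, flp-8 and flp-14, of which the first 2 were called in both treatments. The gene flp-6 (WBGene00001449, chromosome V, 9471975 to 9473792) had 19.79 and 18.31 CPM in water and 20.95 and 19.70 CPM in arsenite at 1 day. The older worms had 44.68 and 36.79 CPM in water and 38.55 and 36.46 CPM in arsenite. The ages were far apart in every library. It rose 2.14-fold (log2 SE 0.10, edgeR adjusted p = 1.514e-09) in water and 1.85-fold (log2 SE 0.10, edgeR adjusted p = 4.798e-08) in arsenite. For flp-5 (WBGene00001448, X, 8528250 to 8531076) the values were 2.45 and 2.39 CPM in water and 2.22 and 2.29 CPM in arsenite at 1 day. Values at 5 days were 4.96 and 5.36 CPM in water and 5.56 and 5.63 CPM in arsenite. Replicates lay close together and the ages did not overlap, with log2 fold changes of 1.09 (SE 0.19, edgeR adjusted p = 2.66e-05) in water and 1.31 (SE 0.19, edgeR adjusted p = 2.248e-06) in arsenite. The gene flp-14 had 5.33 and 3.92 CPM in water and 3.71 and 4.915 CPM in arsenite at 1 day. The 5-day levels were 4.79 and 7.03 CPM in water and 6.30 and 5.99 CPM in arsenite. In water the ages overlapped, and in arsenite they did not. Its log2 fold change was 0.36 (SE 0.20, not called) in water and 0.51 (SE 0.20, edgeR adjusted p = 0.03605) in arsenite. The gene flp-8 had 0.22 in water, not called, and 0.61 in arsenite (edgeR adjusted p = 0.04147), a call lost in 7 of 15 alternatives.

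**Figure D3:**
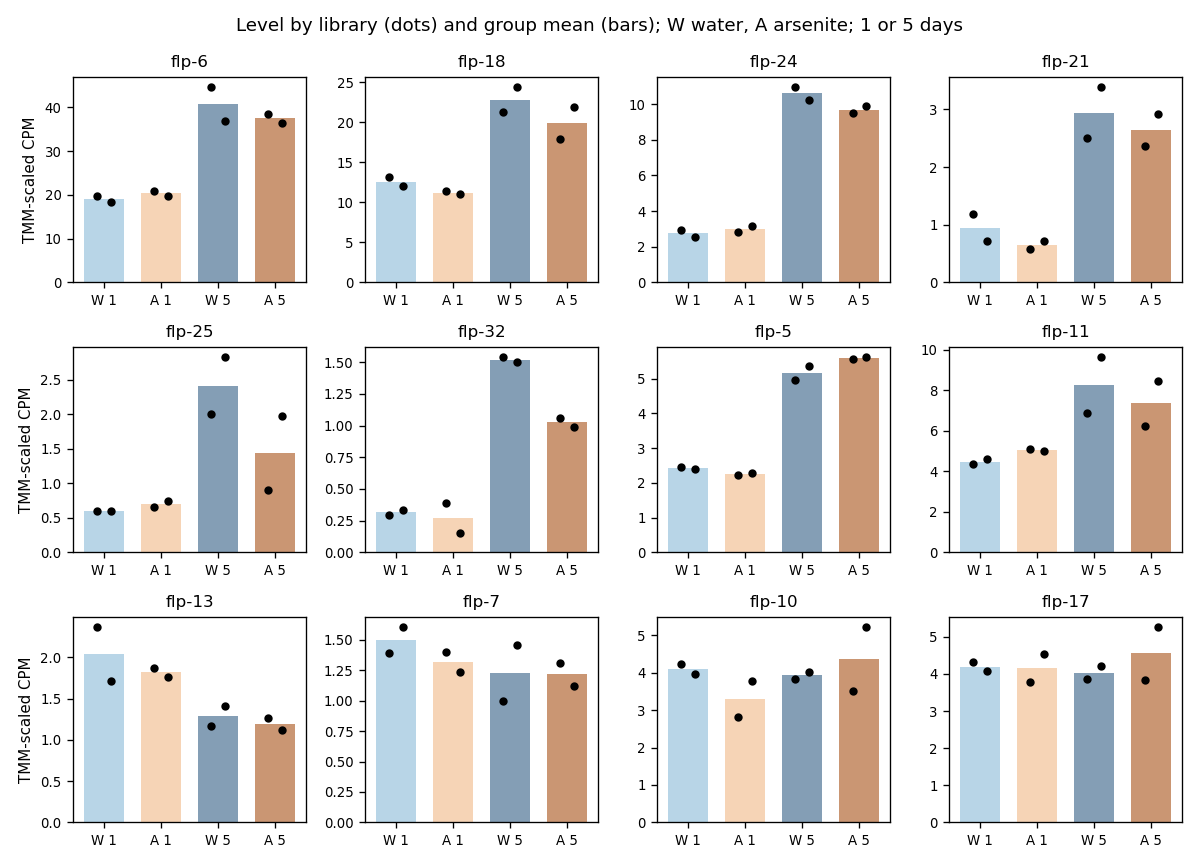
TMM-scaled CPM of 12 flp genes by group (W water, A arsenite, 1 or 5 days), with dots for the libraries and bars for the mean of the 2 libraries. In flp-24, flp-21, flp-32, flp-6, flp-5, flp-18, flp-11 and flp-25 all 4 libraries of 5 days lie above all 4 of 1 day. In flp-13 they lie below.

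Several well-studied members did not pass the test between the ages. Peptides of flp-10 and flp-17 act through the receptor EGL-6 to hold back egg laying, and flp-17 is made in the carbon dioxide-sensing BAG neurons. In water flp-10 had 4.23 and 3.96 CPM at 1 day and 3.835 and 4.03 CPM at 5 days, and in arsenite 2.81 and 3.79 CPM and 3.52 and 5.22 CPM. The ages overlapped in both treatments, with log2 fold changes of -0.06 (SE 0.21) and 0.40 (SE 0.21). For flp-17 the libraries had 4.31 and 4.07 CPM at 1 day and 3.88 and 4.202 CPM at 5 days in water, and 3.785 and 4.54 CPM and 3.84 and 5.27 CPM in arsenite. These overlapped too, and the 95% interval of its log2 fold change in water was -0.45 to 0.35. The gene flp-7, made in the ASI neurons and known for fat loss through NPR-22, had 1.396 and 1.61 CPM at 1 day and 1.00 and 1.46 CPM at 5 days in water, and 1.405 and 1.24 CPM and 1.31 and 1.125 CPM in arsenite. Its ages overlapped, and the log2 fold change was -0.29 (SE 0.29) in water and -0.11 (SE 0.30) in arsenite.

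The gene flp-1, known for its role in locomotion and made in the AVK neurons, was among the most abundant members and stood at 8.965 and 11.58 CPM in water and 10.18 and 11.48 CPM in arsenite at 1 day. At 5 days it had 10.96 and 13.59 CPM in water and 10.38 and 11.30 CPM in arsenite. The ages overlapped, with a 95% interval of -0.04 to 0.55 in water and -0.30 to 0.30 in arsenite. In flp-2, which acts in arousal through FRPR-18, replicates were far apart, with 0.761 and 1.68 CPM at 1 day and 2.21 and 1.415 CPM at 5 days in water, and 1.44 and 1.69 CPM and 1.55 and 2.21 CPM in arsenite. The log2 fold change of 0.55 (SE 0.34) in water and 0.25 (SE 0.32) in arsenite was not called. These intervals do not show that the ages were alike.

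Among the remaining members, flp-28 (0.78 in water, 0.55 in arsenite) and flp-22 (0.49, 0.44) rose in both treatments, on the log2 scale. In water flp-12 (0.96), flp-19 (0.65) and flp-27 (0.47) were also called, and in arsenite flp-4 (0.75), flp-16 (0.69) and flp-3 (0.37). The peptides of flp-12, flp-8, flp-10 and flp-20 are known from the turning step of male mating. The difference between the age effects of water and arsenite was called for 0 of 30 flp genes, as given with the arsenite tests, so a call in 1 treatment and not in the other does not show that they differ. Not called in either treatment were flp-1, flp-2, flp-7, flp-9, flp-10, flp-17, flp-20, flp-26, flp-33 and flp-34. By chromosome, 7 of the 13 flp genes on X rose and 0 fell in water, where 21.6% of all X-linked genes rose and 37.2% fell. Of the 17 tested ones elsewhere 7 rose and 1 fell, beside 30.1% and 30.0% of all genes, those on X included. In arsenite 7 of the 13 on X and 8 of the 17 elsewhere rose and 0 fell, beside 30.3% and 29.4% of all genes. These shares cover genes of every chromosome, so unlike in water the flp genes on X are not set against X-linked genes.

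The partners of the peptides were described from lists chosen with earlier results of these data known. All 9 precursor-processing genes were called between the ages in water, 5 higher and 4 lower, beside 30.1% and 30.0% of all genes. The carboxypeptidase gene egl-21 (0.18), the convertase gene egl-3 (0.31), its chaperone gene sbt-1 (0.49), the amidating gene pghm-1 (0.60) and the convertase gene bli-4 (0.26) rose on the log2 scale. The convertase genes aex-5 and kpc-1 fell by 1.48 (SE 0.12) and 0.58 (SE 0.09), and the amidating genes pgal-1 and pamn-1 fell by 0.26 and 0.24. In arsenite 3 of these 9 rose and 3 fell, beside 30.3% and 29.4% of all genes. Of 9 dense core vesicle genes, cab-1 (0.45) and unc-108 (0.41) rose and hid-1 (-0.20) fell in water. In arsenite 2 of the 9 rose and 4 fell. The shares of all genes are those given for the processing genes.

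Of 13 tested receptors of FLP peptides 0 rose and 5 fell in water, where 30.1% of all genes rose and 30.0% fell. In arsenite 0 rose and 3 fell, where 30.3% rose and 29.4% fell, and 6 of the 13 had positive fold changes. The gene npr-11, which encodes a receptor of FLP-34, had 0.855 ± 0.0466 CPM at 1 day and 0.189 ± 0.146 CPM at 5 days in water (SD, n = 2; log2 fold change -2.14, SE 0.52). The gene dmsr-1, whose product receives FLP-13, went from 5.55 ± 0.288 to 3.30 ± 0.305 CPM (log2 fold change -0.75, SE 0.19). The gene npr-5 went from 7.11 ± 0.249 to 4.93 ± 0.727 CPM (-0.53, SE 0.17), npr-10 had -1.43 and dmsr-7 had -0.87. The median over the receptors was -0.43, against 0.48 for the flp genes. Levels of several receptors lie near or under 1 CPM.

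**Figure D4:**
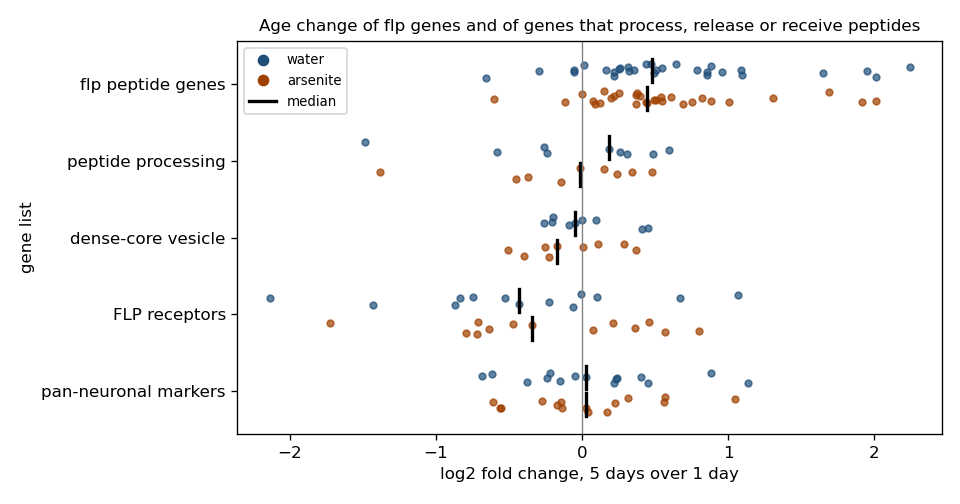
Log2 fold change of 5 days over 1 day for each tested gene of 5 lists (points), in water and in arsenite, with the median of each list as a vertical bar. In water the flp genes have a median of 0.48, the FLP receptors -0.43, and the pan-neuronal markers 0.02.

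Of 15 pan-neuronal markers 5 rose and 4 fell in water (median 0.02), near the 30.1% and 30.0% of all genes that also apply to the marker counts in water that follow. In arsenite 3 rose and 4 fell, beside 30.3% and 29.4%. Their summed level over the libraries of both treatments was 413.0 to 445.6 CPM at 1 day and 535.0 to 581.0 CPM at 5 days. The synaptobrevin gene snb-1 made up 28.7% of this sum at 1 day and 47.3% at 5 days in water, and without it the sum was 304 ± 12 CPM and 300.6 ± 18.26 CPM (SD, n = 2). With libraries scaled to the summed pan-neuronal markers, which shifts the median of all genes by -0.42 on the log2 scale in water and -0.35 in arsenite, 10 flp genes rose and 4 (flp-7, flp-10, flp-13 and flp-17) fell in water. In arsenite 6 rose and 2 (flp-1 and flp-13) fell. With each marker weighted equally, an alternative added after seeing the data, 13 rose and 1 fell in water and 13 rose and 0 fell in arsenite. The genes flp-5, flp-6, flp-18, flp-21, flp-24 and flp-32 kept their call in both treatments under that scaling and all other alternatives run. All 8 body muscle markers fell in water. Summed levels of this list and of those that follow span the libraries of both treatments, unless water is named. For body muscle they were 5067.0 to 5339.0 CPM at 1 day and 1440.0 to 1647.0 CPM at 5 days. Of 7 intestine markers 6 fell and 0 rose (3019.0 to 3352.0 and 807.4 to 1018.0 CPM), of 7 hypodermis markers 3 rose and 3 fell (523.5 to 592.9 and 82.71 to 131.7 CPM, of which the collagen gene col-19 had 484.7 and 20.34 CPM in water and the other 6 markers 81.51 ± 4.75 and 93.78 ± 26.75 CPM, SD, n = 2), and of 5 tested glia markers 1 rose and 3 fell (84.23 to 94.05 and 76.48 to 83.96 CPM). Of 8 germline markers 4 rose and 2 fell (4015.0 to 4209.0 and 4125.0 to 4225.0 CPM), and of 9 tested embryo markers 2 rose and 6 fell (98.73 and 101.9 against 45.77 and 50.64 CPM in the water libraries). No marker of these lists was at 0 in all libraries. The part of these markers in the flp results was not tested.

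The second comparison set arsenite against water at each age. At 1 day 0 of 30 flp genes passed the edgeR test, as did 0.0% of all genes, and at 5 days 0 passed, where 0.0138% of all genes did. At an unadjusted p under 0.05 there was 1 flp gene at each age, beside 1.65% of all genes at 1 day and 3.97% at 5 days, and DESeq2 and limma voom called 0 at both. The effect averaged over both ages and the difference of the effect between ages were also called for 0 flp genes, against 0.0% of all genes, with 3 and 1 at an unadjusted p under 0.05, beside 2.85% and 2.55% of all genes. DESeq2 and limma voom called 0 here too. Log2 fold changes ran from -0.53 to 0.62 at 1 day, with a median of -0.08, and from -0.76 to 0.62 at 5 days, with a median of -0.12. The medians of all genes were within 0.01 of 0.

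At 1 day flp-8 had the smallest p. It stood at 2.16 and 1.98 CPM in water and 1.25 and 1.61 CPM in arsenite, with both arsenite libraries lower, and a log2 fold change of -0.53 (SE 0.25). Next were flp-4, with 1.86 and 1.87 CPM in water against 1.09 and 1.501 CPM in arsenite (-0.52, SE 0.28), and flp-20, with 0.592 and 0.710 CPM against 0.585 and 1.43 CPM (0.62, SE 0.41). The first of these pairs did not overlap and the second did. At 5 days flp-25 came first, with both arsenite libraries below both water libraries and a log2 fold change of -0.76 (SE 0.31). It was followed by flp-12, at 5.54 and 6.05 CPM in water and 5.07 and 4.01 CPM in arsenite (-0.35, SE 0.18) without overlap, and by flp-18 (-0.20, SE 0.11), whose libraries overlapped. None of these passed, with edgeR adjusted p of 0.9994 to 1. Averaged over both ages the smallest p were those of flp-18 (-0.18, SE 0.08), flp-20 (0.62, SE 0.29) and flp-4 (-0.40, SE 0.19), and the difference between ages was led by flp-12 (-0.59, SE 0.27), flp-25 (-1.01, SE 0.53) and flp-15 (-0.49, SE 0.31). At 1 day flp-12 had 3.298 and 2.69 CPM in water and 3.71 and 3.34 CPM in arsenite, so its arsenite libraries were the higher ones at 1 day and the lower ones at 5 days. For flp-15 the 1-day libraries had 2.41 and 2.17 CPM in water and 2.93 and 2.59 CPM in arsenite, and the 5-day libraries 4.13 and 4.16 CPM and 4.25 and 2.84 CPM. Its treatments were separate at 1 day and overlapped at 5 days. At 5 days flp-8 had 2.42 and 2.401 CPM in water and 2.04 and 2.34 CPM in arsenite, and flp-4 had 2.13 and 3.17 CPM and 2.04 and 2.34 CPM. The treatments did not overlap in flp-8 and did in flp-4. For flp-20 at 5 days the values were 0.5835 and 0.943 CPM in water and 1.31 and 1.035 CPM in arsenite, with both arsenite libraries higher.

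At 1 day both arsenite libraries lay above both water libraries for 4 flp genes and below for 7, against 14.3% and 14.2% of all genes (28.5% in either direction). At 5 days the numbers were 2 and 9, against 14.1% and 15.4% (29.5%). The 95% interval of the arsenite effect lay within 2-fold either way for 23 of 30 flp genes at 1 day and 26 of 30 at 5 days. For the sleep gene flp-24 it was -0.25 to 0.51 and -0.42 to 0.16, and for flp-6 it was -0.12 to 0.30 and -0.31 to 0.07. The intervals of flp-20, flp-25 and flp-32 were wider and reached past 2-fold at both ages.

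**Figure D5:**
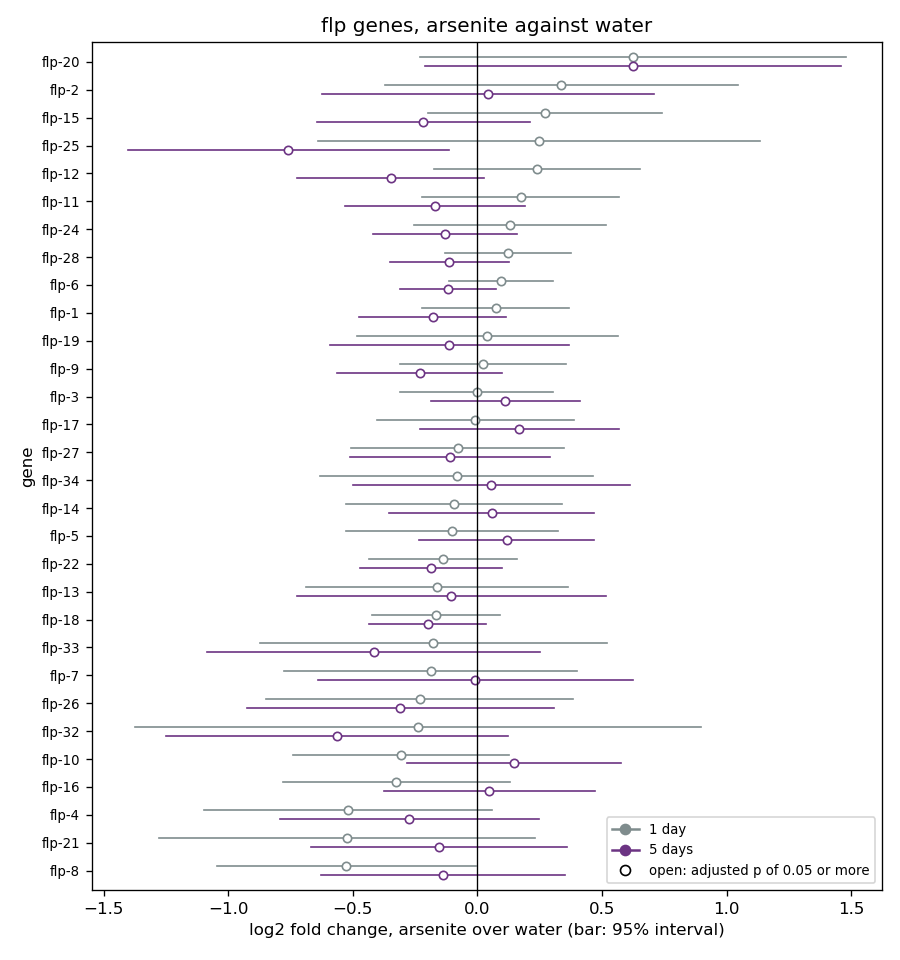
Log2 fold change of arsenite over water for each tested flp gene at 1 day and at 5 days, with 95% intervals; all symbols are open because no adjusted p was under 0.05. The values lie between -0.76 and 0.62.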

How the data were processed

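Samples were grouped by their source labels. One deposited table, of counts, holds whole-number read counts per WormBase gene identifier, made by the authors with CASAVA 1.7, STAR 2.4.1d and featureCounts 1.4.6-p4 on build WBcel235, per the submitters' processing notes. The annotation release, strand setting and multi-mapping rule, on which counts of overlapping genes depend, were not given in the sources used here. A second deposited table, of RPKM values that the authors computed, entered no test, because for 21 of 28 library pairs the ratio of its divisors varied by over 10% between rows. Names came from a reference table (43693 of 46748 identifiers) and positions and exon lengths from the WBcel235 annotation of Ensembl.

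Genes were filtered with filterByExpr (minimum count 10, minimum total 15) and scaled by TMM in edgeR 4.0.16 (R 4.3.3). Quasi-likelihood tests with robust estimation were fitted to 4 group means over all 8 libraries, with Benjamini-Hochberg adjustment over all 14449 genes and a threshold of 0.05. Standard errors were derived by dividing a fold change by the root of its F value. The script was tested on simulated data in which far fewer genes changed than were called between the ages. That run therefore does not check the scaling under so broad a change. CPM are TMM-normalized. Alternatives were DESeq2 1.42.0, limma 3.58.1 (voom), other scalings and filters, fewer libraries, and a term for neighbouring library numbers.

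The members and gene lists were chosen with earlier results of these data known. Every tested member has its level described. Values in every library are given for members called with a change of 2-fold or more in water, for 10 members with well-known roles, and for the 3 of smallest p in each arsenite contrast where none passed. Of partner lists and other families, only some of the up to 4 members of smallest p are given with values, so those shown do not stand for the rest. For the processing genes all called members were named after their values were seen.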

Additional observations from a re-analysis of the deposited data

How the results depend on the processing

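No paired analysis was possible because the labels carry no replicate numbers shared between groups. A term for adjacent library numbers, a pairing that the labels do not state, was fitted all the same, and with it 16 flp genes were called between ages in water (15 higher, 1 lower) and 17 in arsenite (17 higher, 0 lower). The count of flp genes called between ages in arsenite (15) was 8 with pan-neuronal scaling and 9 by DESeq2. On leaving out any 1 library it ranged from 8 to 15, and in water from 12 to 18. In water, pan-neuronal scaling called 14 (10 higher, 4 lower), of which 11 were also called with TMM; the median of the family was then 0.06, and 0.09 in arsenite. The summed scaling leans on snb-1; with equal weights 14 were called in water (13 higher, 1 lower; median 0.40) and 13 in arsenite (13 higher, 0 lower; median 0.41). Arsenite calls stayed at 0 under every alternative run. Apart from the pan-neuronal scalings, of which the one weighting each marker equally was chosen after seeing the data, 12 of 15 called genes in water and 7 of 15 in arsenite kept their call in all 15 alternatives. Lost in at least 1 were flp-13, flp-27 and flp-19 in water, and flp-8, flp-25, flp-3, flp-14, flp-11, flp-4, flp-16 and flp-22 in arsenite.

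With pan-neuronal scaling the sign turned in water for flp-34 (-0.41; -0.072 with equal weights), flp-26 (-0.25), flp-20 (-0.20), flp-3 (-0.16), flp-8 (-0.20), flp-1 (-0.17), flp-9 (-0.10), flp-16 (-0.10) and flp-14 (-0.062), and in arsenite for flp-34 (-0.20), flp-26 (-0.26), flp-20 (-0.135), flp-2 (-0.10), flp-9 (-0.28), flp-17 (-0.23) and flp-33 (-0.15). In arsenite flp-1 had 0.0031 with a filter of 1 CPM and 0.0047 when a term for adjacent library numbers was added. Leaving out 1 library gave these ranges of genes whose sign turned: in water flp-34 -0.13 to 0.14, flp-26 -0.0027 to 0.34, flp-20 -0.16 to 0.52 and flp-17 -0.11 to 0.0018; in arsenite flp-34 -0.12 to 0.38, flp-26 -0.14 to 0.37, flp-20 -0.28 to 1.00, flp-2 -0.0287 to 0.48, flp-1 -0.0827 to 0.0877, flp-9 -0.089 to 0.21, flp-17 -0.13 to 0.33 and flp-33 -0.0144 to 0.45; and for arsenite against water at 1 day flp-20 -0.16 to 1.12. None of these was called, and beyond the scalings' own construction the cause was not tested.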

Other observations

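Beside the calls in other neuropeptide families given here, 30.1% of all genes rose and 30.0% fell in water, and 30.3% and 29.4% in arsenite. Of 62 tested nlp genes, which encode neuropeptide-like proteins outside the FMRFamide group, 37 rose and 2 fell in water, and 31 rose and 2 fell in arsenite. Their summed level was 239.5 ± 9.07 CPM at 1 day and 336.0 ± 9.86 CPM at 5 days in water (SD, n = 2), a ratio of 1.403, next to 1.618 for the flp genes. Of these, nlp-59 went from 0.761 and 0.934 CPM to 9.84 and 6.95 CPM in water, and nlp-49 from 7.10 and 6.65 CPM to 17.76 and 18.14 CPM. Of 24 tested insulin-like peptide genes 12 rose and 2 fell in water and 13 rose and 2 fell in arsenite, among them ins-7, from 0.296 and 0.187 CPM to 5.46 and 3.602 CPM in water. Of the receptor families, 2 of 32 npr, 0 of 16 frpr and 0 of 11 dmsr genes rose and 5, 2 and 3 fell in water. In arsenite 2, 0 and 0 rose and 2, 0 and 2 fell. The counts of fallen genes in water include the FLP receptor genes npr-5, npr-10, npr-11, dmsr-1 and dmsr-7 already described. No test of a difference between families was made.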
